A study of Mus musculus with 6 samples.

Results

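The genes described here are 10 genes by which T cells and their subsets are recognised, namely Cd3d, Cd3e, Cd3g, Cd4, Cd8a, Cd8b1, Lck, Cd28, Icos and Foxp3. They were chosen by name from a table of 23946 gene symbols, and all 10 were found in it. The table holds 1 library for each of 6 conditions, so the difference between any 2 conditions has no replicate check and no p-value is given. Macrophages were sorted as CD45+, CD11b+ and F4/80+ cells from the dissociated omentum (OM) or mesenteric adipose tissue (MY) of young adult female C57BL/6 mice. The libraries OM naive and MY naive came from normal mice, OM 24h and MY 24h from mice injected with ID8 cells 24 h earlier, and OM 7d and MY 7d from mice injected 7 d earlier. ID8 is a mouse ovarian cancer cell line. Per the series' design text, tissues of 9 mice were processed as 3 groups of 3 animals. The study describes 3 replicates of pooled tissue, while the labels and the table hold 1 sample per condition, and whether its values come from 1 pool or from several combined is not given in the sources used here. Values are FPKM, the fragments of a gene per kilobase of its length, scaled to the aligned fragments of the library, so levels can be compared between genes.

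T cells recognise antigen through the T cell receptor, whose chains carry no signalling tails of their own. The receptor is assembled with the CD3 proteins, and the CD4 or CD8 coreceptor brings the kinase LCK to them when a peptide on an MHC molecule is bound. CD28 and ICOS give a second, costimulatory signal, and the transcription factor FOXP3 sets the programme of regulatory T cells. In the omentum, T cells are known as residents of the milky spots, the immune cell clusters of that tissue. Some of these genes are also used by other cells, Cd4 and Cd8a by subsets of dendritic cells and Lck by NK cells. The antibody panel of the sort held no T cell marker, and CD11b and F4/80 are not typical of T cells.

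The genes of the sort markers were detected in every library. Ptprc (CD45) lay between 106 and 208 FPKM, Itgam (CD11b) between 27.8 and 150.9, and Emr1 (F4/80) between 20.5 and 135. The T cell genes were also detected in every library, at 0.190 FPKM (Foxp3 in OM 24h) to 333 FPKM (Lck in MY naive). In MY naive the FPKM of Cd3e was 237 and that of Emr1 was 20.5. All 10 genes passed the filter used for counts, 1 FPKM or more in 1 or more of the libraries, which 13064 genes of the table passed. Of the 10, Cd8a, Cd8b1, Icos and Foxp3 were below 1 in OM 24h. Cd74, which was at least 11323 FPKM in the other 5 libraries, was listed at 0 in OM 24h, so a value of 0 in this table need not mean that a gene was silent.

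The depth behind low values was estimated from the smallest values of genes with a known length, which cluster at the worth of 1 fragment. This placed 1 fragment in a transcript of 1000 bases at 0.0209 FPKM (OM 7d) to 0.0357 FPKM (OM naive). By this rough estimate the lowest values of the T cell genes, all in OM 24h, rested on about 24 fragments for Foxp3, 29 for Cd8a, 32 for Cd8b1 and 60 for Icos. Each mesenteric value rested on about 370 fragments or more.

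Among the 10 genes, the 3 CD3 genes lie side by side on chromosome 9 of NCBIM37, the mm9 assembly to which the authors aligned. Cd3g (44777655 to 44788514, minus strand) and Cd3d (44789876 to 44795135, plus strand) are transcribed away from each other with 1361 bases between them, and Cd3e (44806826 to 44817673, minus strand) follows after 11690 bases. Cd8b1 (71272830 to 71287471) and Cd8a (71323421 to 71329165), both on the plus strand of chromosome 6, are 35949 bases apart. Cd28 (60773644 to 60830203) and Icos (61034771 to 61057164) share chromosome 1 with Ctla4, which encodes the inhibitory receptor CTLA-4 and lies between them. Cd4 is on chromosome 6 (124814710 to 124838239, minus strand), Lck on chromosome 4 (129225588 to 129250885, minus strand) and Foxp3 on chromosome X (7156802 to 7172369, plus strand). Of the 75-base windows of each gene's longest coding transcript, none occurred in the coding transcripts of another gene for 9 of the genes, and 12 of 1344 windows of Cd8b1 did, in Gnal. The annotation places exons of Ccdc22 over 15.4% and exons of Ppp1r3f over 9.73% of the longest coding Foxp3 transcript, on the opposite strand, and exon sequence of 4930524L23Rik over 4.46%, on the same strand. No strand information is given for the libraries, so fragments in the shared stretches cannot be assigned to 1 gene. Ccdc22 was between 16.7 and 31.3 FPKM and was highest in OM 24h, where Foxp3 was lowest. Ppp1r3f was at 0.666, 0.319 and 0.612 FPKM in OM naive, OM 24h and OM 7d, so it was lowest where Foxp3 was. In MY naive, MY 24h and MY 7d it was at 2.65, 1.53 and 1.92. The part of the shared stretches in the Foxp3 values was not tested.

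The CD3 genes moved together across the libraries, and their promoters are shown because the 3 share a locus and a pattern. RefSeq promoters (GRCm38.p6) were found for 6 of the 10 genes. The 250 bases before each CD3 start are printed 5′ to 3′ on the gene's strand. Capitals mark matches on either strand to CAGGAA (ETS factors), CTTTGA (TCF and LEF factors) or, for GATA factors, TGATAA or its variant AGATAA.
Cd3d, chr9:44981536-44981785, plus strand: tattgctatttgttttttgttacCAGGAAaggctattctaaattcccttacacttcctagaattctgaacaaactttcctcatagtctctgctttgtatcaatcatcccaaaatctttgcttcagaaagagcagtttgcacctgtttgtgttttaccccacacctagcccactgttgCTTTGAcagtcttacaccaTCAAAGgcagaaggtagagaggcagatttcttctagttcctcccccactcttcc
Cd3g, chr9:44980432-44980681, minus strand: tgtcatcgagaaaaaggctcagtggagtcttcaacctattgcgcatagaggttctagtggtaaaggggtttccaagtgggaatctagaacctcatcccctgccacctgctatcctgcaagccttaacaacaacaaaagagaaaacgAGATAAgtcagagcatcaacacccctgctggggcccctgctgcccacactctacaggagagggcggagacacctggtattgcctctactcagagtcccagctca
Cd3e, chr9:45009612-45009861, minus strand: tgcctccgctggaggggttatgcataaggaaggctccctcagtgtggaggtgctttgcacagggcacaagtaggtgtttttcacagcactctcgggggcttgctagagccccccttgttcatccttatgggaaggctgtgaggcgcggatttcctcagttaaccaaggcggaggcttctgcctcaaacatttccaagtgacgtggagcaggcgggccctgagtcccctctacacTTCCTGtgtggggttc
Counted back from the start, the Cd3d window held CAGGAA at bases 227 to 222 and CTTTGA at bases 73 to 68 and, on the other strand, at bases 54 to 49. The Cd3g window held AGATAA at bases 104 to 99, and the Cd3e window held CAGGAA on the other strand at bases 16 to 11. No matched stretches overlapped. TGTGGT (RUNX factors) and TATAAA (the TATA box) were also searched and were not found in these 3 windows. Among 32851 promoter windows of this length, 25.7% held the ETS letters, 13.8% the TCF and LEF letters, 16.6% the GATA letters, 14.0% the RUNX letters and 12.4% the TATA box. The 3 windows have no matched motif in common.

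The CD3 genes were high in all mesenteric libraries and low in all omental ones. Cd3e, whose product is a signalling chain of the receptor complex, stood at 237, 104 and 256 FPKM in MY naive, MY 24h and MY 7d and at 28.0, 3.98 and 28.4 in OM naive, OM 24h and OM 7d, an order kept for every gene. Cd3d, the delta chain, stood at 124, 81.0 and 175 in the mesentery and at 13.3, 3.20 and 19.2 in the omentum. Cd3g, the gamma chain, stood at 213, 120 and 276 in the mesentery and at 35.0, 6.19 and 28.2 in the omentum. The lowest mesenteric value, always that of MY 24h, was thus 3.42 to 4.21 times the highest omental value for each of the 3 genes. In MY naive they ranked between the 94.6th and the 97.4th percentile of the expressed genes, and in OM 24h between the 27.7th and the 40.3rd.

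In the ratio of the lowest mesenteric to the highest omental FPKM, the CD8 genes were further apart than any other members. Cd8b1, the beta chain that conventional cytotoxic T cells pair with the alpha chain, was at 195, 118 and 284 FPKM in MY naive, MY 24h and MY 7d. In the omentum it was at 4.20, 0.688 and 6.15. Cd8a, the alpha chain, was at 44.1, 24.7 and 64.0 in the mesentery and at 2.63, 0.282 and 1.44 in the omentum. The lowest mesenteric value exceeded the highest omental value 19.2 times for Cd8b1 and 9.40 times for Cd8a. Within each mesenteric library the FPKM of Cd8b1 was 4.42 to 4.79 times that of Cd8a, in OM 7d 4.28 times, in OM 24h 2.44 times and in OM naive 1.60 times.

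Cd4, the coreceptor of helper and regulatory T cells, followed a different course. It was at 47.8, 49.5 and 68.1 FPKM in MY naive, MY 24h and MY 7d and at 8.48, 8.79 and 8.77 in the omentum. The tissues did not overlap, and the 3 omental values were nearly equal. Lck, the kinase that phosphorylates the CD3 tails, was the highest of the 10 genes in every library but OM 24h and had 333, 187 and 306 FPKM in the mesentery and 46.6, 4.39 and 39.7 in the omentum. In OM 24h the highest of the 10 was Cd4, followed by Cd3g.

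The costimulatory genes were lower than the CD3 genes. Cd28, the receptor for CD80 and CD86, had 14.2, 10.1 and 19.3 FPKM in the mesentery and 3.39, 1.37 and 3.83 in the omentum. Icos, its relative on activated and follicular T cells, had 14.8, 9.997 and 16.0 in the mesentery and 2.85, 0.562 and 4.46 in the omentum. Neither gene overlapped between the tissues. Foxp3 was the lowest of the 10 in every mesenteric library, at 6.20, 2.19 and 4.39 FPKM. In the omentum it was at 1.62, 0.190 and 4.50, so that OM 7d lay above MY 24h and MY 7d and the tissues overlapped. No other member overlapped.

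**Figure D1:**
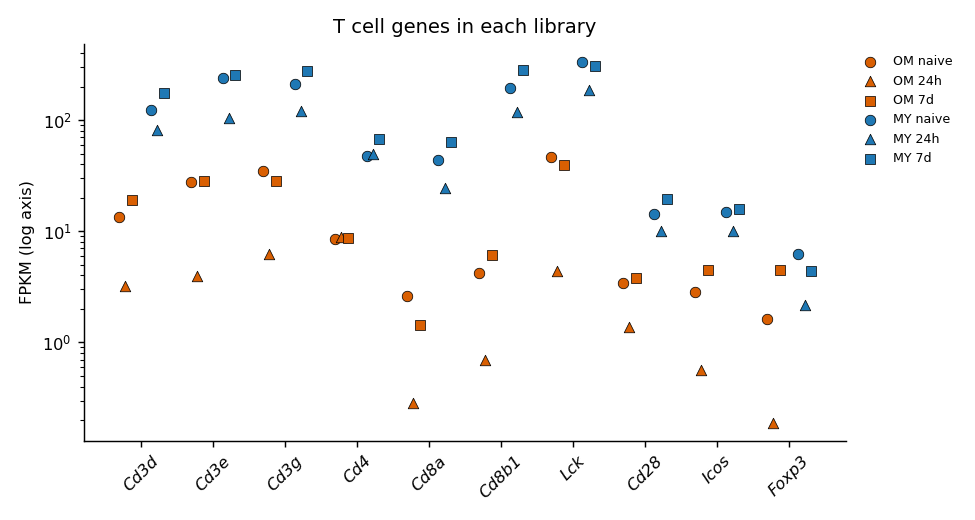
FPKM of the 10 genes (log axis) in the 3 omental (orange) and 3 mesenteric (blue) libraries, 1 point per library, with circles for naive, triangles for 24 h and squares for 7 d. Every blue point lies above every orange point for 9 genes, Foxp3 being the exception, and Cd4 shows nearly the same omental value at each time point.

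The first question of the design is how macrophage-gated cells of the omentum and the mesentery differ. Between the naive libraries all 10 genes were at least 2-fold lower in OM naive than in MY naive, against 8.05% of the 13064 expressed genes lower and 8.18% higher. The median log2 fold change of the 10 was -2.69, and that of all expressed genes was 0.01. Fold changes are differences of log2(FPKM + 1), which understate changes of low genes. They ran from -5.24 for Cd8b1 (FPKM 46.5 times higher in MY naive) to -1.46 for Foxp3 (3.83 times). Cd3e had -3.04, Cd3d -3.12, Lck -2.81, Cd3g -2.57 and Cd4 -2.36.

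At 24 h all 10 genes were again at least 2-fold lower in the omental library, beside 10.2% of expressed genes lower and 13.9% higher. The median of the 10 was -4.18. Cd8b1 stood at -6.14 and Lck at -5.13, followed by Cd3e at -4.39 and Cd8a at -4.33, while Cd4 stood at -2.37, nearly its value between the naive libraries. At 7 d, 9 of the 10 were at least 2-fold lower in OM 7d than in MY 7d, beside 4.99% of expressed genes lower and 14.1% higher, with a median of -3.02. Foxp3 was the exception at 0.03 (4.50 against 4.39 FPKM), a difference that turned to -0.02 when each library was rescaled to a sum of 1000000. In all, 9 of the 10 had their 3 mesenteric values above their 3 omental ones, as did 17.7% of expressed genes. The opposite order held for none of the 10 and for 16.7% of expressed genes. The 3 libraries of a tissue are different time points and not replicates.

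**Figure D2:**
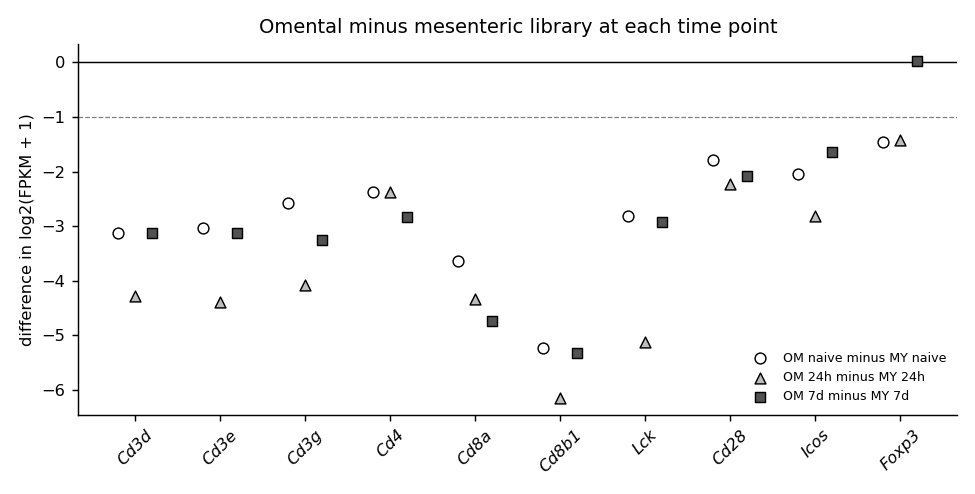
Difference in log2(FPKM + 1) between the omental and the mesenteric library of the same time point for each of the 10 genes, with circles for naive, triangles for 24 h and squares for 7 d, and a dashed line at a 2-fold difference. All points but that of Foxp3 at 7 d, which is at 0.03, lie below the dashed line, and Cd8b1 is lowest at each time point.

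The second question is what followed the injection of ID8 cells. The 24 h and 7 d comparisons of a tissue share its naive library, so their values are given side by side. In OM 24h, 8 of the 10 genes were at least 2-fold lower than in OM naive and none was higher, beside 6.45% of expressed genes lower and 11.9% higher. The median log2 fold change of the 10 was -1.56. Lck had -3.14 (46.6 against 4.39 FPKM), Cd3e -2.54, Cd3g -2.33, Cd3d -1.77, Cd8b1 -1.62, Cd8a -1.50, Icos -1.30 and Foxp3 -1.14. With a pseudocount of 5, 4 genes were counted instead of 8. The count was also 4 with the filter applied to all libraries, which leaves out Cd8a, Cd8b1, Icos and Foxp3 before counting. Cd28 stood at -0.89, short of the 2-fold line, and passed it with a rescaling to a sum of 1000000 (-1.15). Cd4 stood at 0.05, and at -0.14 after that rescaling, which by itself shifted the median of all expressed genes from 0.00 to -0.17.

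At 7 d the omental values were near those of OM naive. Foxp3 was the 1 gene of the 10 that was at least 2-fold higher (log2 fold change 1.07, from 1.62 to 4.50 FPKM), beside 11.0% of expressed genes higher, and none was lower, beside 1.96% of expressed genes. With a pseudocount of 5, Foxp3 was at 0.52 and the count became 0. The median of the 10 was 0.09, with Icos at 0.51, Cd3d at 0.50, Cd8b1 at 0.46, Cd3e at 0.02, Lck at -0.22, Cd3g at -0.30 and Cd8a at -0.57.

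In the mesentery, too, the 9 genes other than Cd4 were lower at 24 h than in the naive library. Cd3e (log2 fold change -1.19) and Foxp3 (-1.18) passed 2-fold, beside 1.52% of expressed genes lower and 2.80% higher, and the median of the 10 was -0.76. Cd4 was at 0.05 (49.5 against 47.8 FPKM), and at -0.07 after the rescaling to a sum of 1000000. At 7 d none of the 10 was 2-fold apart from MY naive, beside 0.498% of expressed genes higher and 2.29% lower. The median was 0.40, and the values ran from -0.42 for Foxp3 to 0.54 for Cd8b1. Whether the 24 h difference of these genes differs between the tissues was not tested, since each tissue has 1 library per time point.

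**Figure D3:**
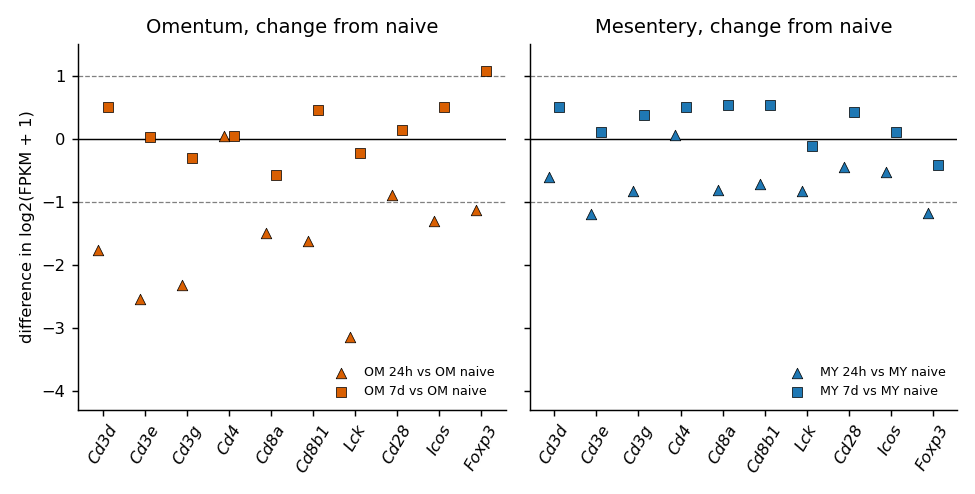
Difference in log2(FPKM + 1) from the naive library of the same tissue for each of the 10 genes, omentum on the left and mesentery on the right, with triangles for 24 h and squares for 7 d and dashed lines at 2-fold. In both tissues the 24 h triangles lie below 0 except for Cd4, at 0.05, and in the omentum they reach -3.14 for Lck.

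Levels were next set against the mean FPKM of Cd3d, Cd3e and Cd3g in the same library, a comparison chosen after the values were seen. This mean was 25.5, 4.46 and 25.3 in the omentum and 191, 101 and 235 in the mesentery, in the order naive, 24 h and 7 d. Cd8b1 was at 102% to 121% of it in the mesentery and at 15.4% to 24.4% in the omentum. Cd8a was at 23.05% to 27.2% and at 5.69% to 10.3%. Per CD3, both CD8 genes were therefore lower in each omental library than in each mesenteric one.

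Cd4 was at 25.0%, 48.8% and 28.9% of the CD3 mean in MY naive, MY 24h and MY 7d and at 33.3%, 197% and 34.7% in the omentum. In both tissues its share was highest at 24 h, when Cd4 itself was nearly the same as in the naive library and the CD3 genes were lower. Cd28 and Icos per CD3 were higher in every omental library (13.3% to 30.7% and 11.2% to 17.7%) than in every mesenteric one (7.40% to 9.95% and 6.79% to 9.85%). Foxp3 was at 3.24%, 2.16% and 1.87% in the mesentery and at 6.36%, 4.26% and 17.8% in the omentum.

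Ctla4, an inhibitory receptor that regulatory T cells hold at high levels, differed from all of the 10 in its direction between the naive libraries. It was at 25.7, 2.07 and 37.2 FPKM in the omental libraries (naive, 24 h and 7 d) and at 10.7, 5.35 and 10.04 in the mesenteric ones. Relative to the CD3 mean this was 46.5% to 147% in the omentum and 4.27% to 5.59% in the mesentery. The omental naive and 7 d libraries were thus above all mesenteric libraries in FPKM, and OM 24h was below them.

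**Figure D4:**
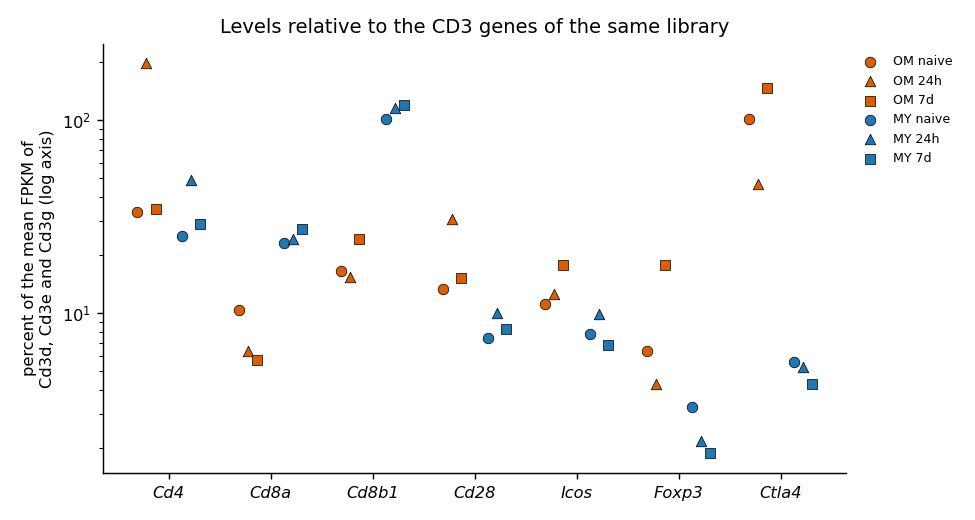
FPKM of Cd4, Cd8a, Cd8b1, Cd28, Icos, Foxp3 and Ctla4 as a percentage of the mean FPKM of Cd3d, Cd3e and Cd3g in the same library (log axis), 1 point per library, omentum in orange and mesentery in blue. The CD8 genes sit lower in the omental libraries and Cd28, Icos, Foxp3 and Ctla4 sit higher, with Foxp3 reaching 17.8% in OM 7d.

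Other genes of the T cell programme, and genes of costimulation partners, were read from 8 lists. Their 65 genes in the table include 61 that were expressed. Between the naive libraries 35 of the 61 (57.4%) were at least 2-fold lower in the omentum and 4 (6.56%) were higher, beside the 8.05% and 8.18% of all expressed genes given above, with a median log2 fold change of -1.41. Those higher were Ctla4, Cd44, Blk and Cd80. Of the 61, 37 had all mesenteric values above all omental ones, an order that 17.7% of expressed genes had, and Cd44 and Cd80 had the opposite order. At 24 h in the omentum 36 of the 61 (59.0%, beside 6.45% of expressed genes) were at least 2-fold lower than in OM naive and 1 was higher (median -1.24). At 7 d 7 were higher (11.5%, near the 11.0% of expressed genes) and 2 were lower (3.28%, beside 1.96%), with a median of 0.06. In the mesentery 6 were lower at 24 h (9.84%, beside 1.52%) and 1 was higher (median -0.55), and 3 were lower at 7 d (4.92%, beside 2.29%, median 0.12).

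The list closest to the 10 genes was that of the proximal signalling chain below the receptor. Of its 14 genes, 13 were at least 2-fold lower in OM naive than in MY naive, with a median of -2.87, and 10 were lower in OM 24h than in OM naive. Cd247, the zeta chain, had 7.22, 1.77 and 12.2 FPKM in the omentum and 79.6, 47.5 and 96.2 in the mesentery. Zap70, the kinase that binds phosphorylated CD3 and zeta tails, had 8.47, 0.658 and 8.25 against 63.3, 31.0 and 50.97. Lat, the adaptor it phosphorylates, had 11.5, 1.28 and 12.4 against 183, 88.2 and 139. Lcp2, an adaptor that myeloid cells also use, was the 1 gene of the list that was higher in OM 24h (65.3 against 31.9 FPKM in OM naive). Rasgrp1, which is also used by B cells, was the 1 gene of the list that was not lower in OM naive (39.9 against 26.3 in MY naive).

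Surface and lineage genes were divided. Of 10 surface genes 8 were at least 2-fold lower in OM naive than in MY naive, among them Cd27 (4.99 against 63.3 FPKM) and Cd6 (4.65 against 51.5), while Cd2 was at 351 against 202 and Slamf6 at 24.7 against 22.7. Of 9 transcription factors of the T lineage 6 were at least 2-fold lower. Lef1 was at 4.06 against 99.9 and Tcf7, its relative, at 21.7 against 221. Bcl11b, which fixes T lineage commitment, was at 1.41 against 14.4. Ets1 (124 against 131), Runx3 (13.7 against 24.0) and Zbtb7b (12.7 against 10.003), a factor of the CD4 lineage, were within 2-fold of each other.

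Regulatory genes other than Foxp3 were less uniform in direction than the 10. Of 8 such genes, 1 was at least 2-fold higher (Ctla4) and 2 were lower (Tnfrsf4 and Gpr83) in OM naive than in MY naive, with a median of -0.71. In OM 7d against OM naive, Tnfrsf4 (26.5 against 7.87 FPKM) and Ccr8 (10.8 against 3.17) were at least 2-fold higher and none was lower. In MY 7d against MY naive none of the 8 was 2-fold apart. Among effector genes, of which 6 of 9 were expressed, 2 were at least 2-fold lower in OM naive than in MY naive. Of these, Tbx21, the factor of type 1 responses, was at 17.5, 1.57 and 16.4 in the omentum and at 75.4, 36.5 and 35.6 in the mesentery. Il17a, Il13 and Il22 stayed below the filter, with no value above 0.38 FPKM. Of 6 genes of naive and memory T cells, 2 were lower and 1 was higher in OM naive. Dapl1 was at 2.03 against 61.5 and Ccr7, which dendritic cells share, at 93.8 against 526 between the naive libraries, while Cd44 was at 92.7 against 38.7.

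The partners of CD28 and ICOS, which are made by antigen-presenting cells, were spread differently. Cd80 was at 7.92, 6.51 and 6.16 FPKM in the omentum and at 2.11, 2.46 and 2.26 in the mesentery, and Icosl was at 17.4, 11.8 and 18.2 against 48.0, 58.9 and 46.7. Cd86 was between 21.6 and 33.7 in all libraries. Pdcd1, the PD-1 receptor, was at 3.07, 3.03 and 11.3 in the omentum and between 4.26 and 7.36 in the mesentery. Of the genes of gamma delta and innate-like T cells, Blk, which B cells also express, was at 156 in OM naive against 25.9 in MY naive. Cd163l1 went the other way, at 0.303, 0 and 0.114 in the omentum and 1.83, 1.42 and 2.52 in the mesentery, and was at least 2-fold lower in the omentum at each time point. Sox13 and Zbtb16 stayed at or below 1.46.

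**Figure D5:**
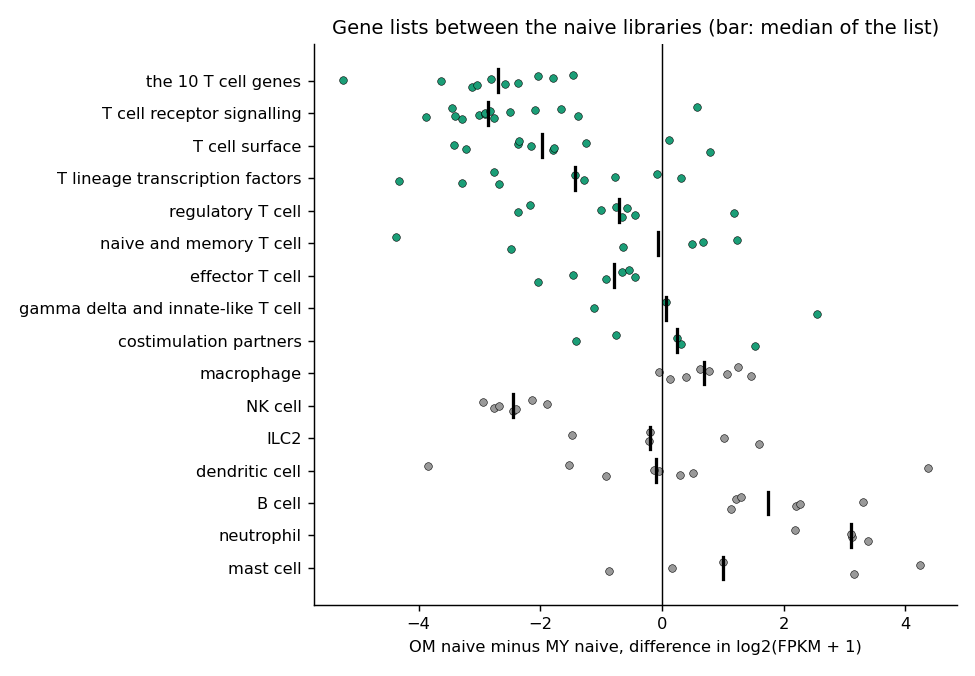
Difference in log2(FPKM + 1) between OM naive and MY naive for the expressed genes of each list. Each gene is 1 point, with a bar at the list median. T cell lists and the costimulation partners are in green and lists of other cell types in grey. The 10 T cell genes (median -2.69), the receptor signalling list (-2.87) and the NK cell list (-2.45) lie to the left of 0, and the B cell (1.75) and neutrophil (3.11) lists to the right.

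Genes of other cell types moved between the same libraries. All 7 NK cell genes were at least 2-fold lower in OM naive than in MY naive, and their summed FPKM was 242, 7.19 and 106 in the omentum and 1649, 981 and 650 in MY naive, MY 24h and MY 7d. In the mesentery the NK sum was lowest at 7 d, when 8 of the 10 T cell genes, Lck and Foxp3 being the exceptions, had their highest value. The 6 B cell genes summed to 4093, 937 and 2540 in the omentum and to 847, 563 and 1621 in the mesentery, opposite to the T cell genes between the naive libraries. The 8 macrophage genes summed to 7999, 29633 and 7388 in the omentum and to 3559, 4975 and 3265 in the mesentery. Most of each sum was Lyz2, at 7054, 24780 and 6791 in the omentum and 2968, 3578 and 2571 in the mesentery. The median log2 fold change of the 8, omentum against mesentery, was 0.69 in the naive libraries, 1.78 at 24 h and -0.02 at 7 d. Emr1 was at 27.4, 135 and 26.5 in the omentum and at 20.5, 68.6 and 37.5 in the mesentery, so that it was highest at 24 h in each tissue, when the CD3 genes were lowest.

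The sums of the other lists stood as follows. The 8 dendritic cell genes ranged from 160 to 385 FPKM in the omentum and from 184 to 296 in the mesentery. Cd209a was the largest part of each omental sum, with 82.0 to 264 FPKM, while its mesenteric values were 11.8 to 15.3. Of the 8 genes, 4 had every mesenteric value above every omental one, and 1, Cd209a, had the opposite order. Siglech, of plasmacytoid dendritic cells, was at 0.57 to 1.15 in the omentum and at 29.9, 68.9 and 30.1 in MY naive, MY 24h and MY 7d. The 4 neutrophil genes ranged from 5896 to 16166 in the omentum and from 56.0 to 662 in the mesentery. The 5 mast cell genes ranged from 4.23 (OM 24h) to 69.0 (MY 7d), and the 6 genes of group 2 innate lymphoid cells from 4.79 (OM 24h) to 24.2 (MY naive). The part of these cell types in the values of the T cell genes was not tested. FPKM is scaled to the fragments of the whole library. Fewer T cells, less T cell RNA per cell and more RNA from other cells therefore cannot be told apart in sorted bulk samples.

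The genes most like the CD3 genes were sought by the root mean square difference between centred log2(FPKM + 1) profiles over the 6 libraries, among genes that reached 5 FPKM in any library. The nearest were Skap1 (0.12), an adaptor of T cells, Cd247 (0.22), Cd96 (0.23), Zap70 (0.25) and Cd27 (0.28). The nearest to Cd8b1 was Lef1 (0.38), and the nearest to Cd8a was Dapl1 (0.27). For Lck it was Ctsw (0.18), a protease of cytotoxic lymphocytes, with 28.1, 2.16 and 25.8 FPKM in the omentum and 221, 124 and 141 in the mesentery. For Icos it was Lime1 (0.14), for Cd28 Snai3 (0.17), for Cd4 Mir6374 (0.20), which was listed at 0 in the omental libraries, and for Foxp3 Prg2 (0.17). Among the 10 themselves, Cd3e was 0.22 from Cd3g, 0.25 from Lck and 1.06 from Cd4, Cd28 was 0.25 from Icos, and Foxp3 was 2.33 from Cd8b1.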

How the data were processed

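RNA of sorted cells was sequenced from 6 samples, 1 per tissue and time point; whether a sample is 1 pool of animals or several combined is not given in the sources used here. The authors used FastQC 0.11.4 for read quality and STAR 2.4.2a for alignment to mm9, with splice junctions from UCSC. They deposited FPKM per gene symbol, a scaling that the methods credit to Cufflinks. Read counts were not used here, so no count test was run. The table columns carry tissue and time, which gave each its sample, and 0 columns belonged to no sample.

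Differences were computed on log2(FPKM + 1) with Python 3.11.15, numpy 2.4.6 and pandas 2.3.3, and plotted with matplotlib 3.10.9. Genes at 1 FPKM or more in at least 1 library were counted as expressed, and 2-fold differences were counted in 7 comparisons. With 1 library per condition, the comparisons of 2 libraries allow no test. A test of the tissues over the 3 time points, which would treat the time points as replicates, was not run. The steps were tested on simulated data. Alternatives were pseudocounts of 0.1 and 5, 2 other filters, rescaling by the median ratio, rescaling to a sum of 1000000 and, added after the data were seen, leaving out each library. The members and gene lists were chosen with earlier results of these data known. The genes named are the 10 members, the genes of the lists, and the nearest profiles (5 for the CD3 mean and 3 for each other member). Ptprc, Cd74, Gnal, Ccdc22, Ppp1r3f and 4930524L23Rik were named after their values were seen. Positions are from NCBIM37 with GENCODE M1, promoters from RefSeq on GRCm38.p6, and no coordinates were converted. The estimate of fragments uses GENCODE lengths of genes with 1 transcript and is approximate. T cell receptor chain genes were not analysed here.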

Additional observations from a re-analysis of the deposited data

Results flagged for a closer look

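Of the 10 T cell genes, 3 differed in opposite directions from the naive library in the omentum and the mesentery, in each case at 7 d, and the difference between the tissues was not tested. The log2 fold change of Foxp3 was 1.07 for the omentum and -0.42 for the mesentery, an omental minus mesenteric difference of 1.49. Cd8a had -0.57 and 0.53, a difference of -1.10, and Cd3g had -0.30 and 0.37, a difference of -0.67. No other member had opposite signs at either time. Foxp3 passed 2-fold in the omentum, beside 11.0% of expressed genes higher there, and was at 0.52 with a pseudocount of 5. The other 5 of these changes stayed within 2-fold. No threshold was set for opposite signs, and the share of all expressed genes with them was not computed.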

How the results depend on the processing

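No paired analysis was possible because the conditions share only 1 replicate number, and a comparison of the tissues paired by time point was not run. Counts were taken as unchanged within 1.5 times and log2 fold changes within 0.58. Of 52 recomputed counts of the 10 genes 44 stayed within that range, among them all counts under the pseudocount of 0.1, the absence of a filter and both rescalings. All 10 genes pass the main filter, so its absence could not change their counts. With a pseudocount of 5 the genes at least 2-fold apart became 4 in OM 24h against OM naive, 0 in OM 7d against OM naive and 1 in MY 24h against MY naive. With the filter set to 1 FPKM or more in all 6 libraries, which leaves out Cd8a, Cd8b1, Icos and Foxp3, these counts were also 4, 0 and 1, and the counts were 6 in OM naive against MY naive and 6 in OM 24h against MY 24h. The number of genes whose tissues do not overlap stayed within range when any 1 library was left out. Leaving out a library can only keep or raise this number, so this was no check of it. Of 280 recomputed log2 fold changes of the 10 genes 245 stayed within 0.58, 35 moved beyond it and 0 that had passed 2-fold changed sign. A pseudocount cannot change a sign, so only the rescalings could have done so. Of the moved values 24 came from the pseudocount of 5 and 9 from that of 0.1. Of 630 recomputed counts of the other lists 104 moved. Rescaling to a sum of 1000000 shifted the median log2 fold change of all expressed genes to 0.12 in OM 7d against OM naive, -0.19 in OM naive against MY naive and -0.27 in OM 24h against MY 24h. No interval or counting error is given for the FPKM values, since read counts were not used and the fragment numbers are rough estimates.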
